A study of Homo sapiens with 40 samples.

Results

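The 48 genes described here carry cells from G2 through mitosis. They were taken by symbol from a list of cyclins, mitotic kinases, checkpoint and kinetochore proteins, mitotic motors, spindle factors and the transcription factor FOXM1. That list was chosen with earlier results of these data known, so its shares beside those of all genes are given as a description. The authors' deposited table holds 58336 genes, of which 19280 have a value in at least 1 cell line. All 48 were in the table, and 46 had values in all 10 lines. KIF14 was listed in 7 lines, without NCIH1975, NCIH522 and PC9, and ASPM in 9, without NCIH1975. The study sequenced RNA of 10 established lines of human non-small cell lung cancer, each exposed to GSK3368712 or to the vehicle DMSO, with 2 libraries per arm and 40 in all. GSK3368712 blocks type I protein arginine methyltransferases, the enzymes that place asymmetric dimethylarginine. The squamous label LUSC is carried by 6 lines, SW900, SKMES1, NCIH520, NCIH226, LK2 and EBC1. The adenocarcinoma label LUAD is carried by the other 4, PC9, NCIH522, NCIH1975 and NCIH1563. Each row label also carries the number 2000 and D5, which are not spelled out. Each line is 1 established line grown in culture, and the labels do not say whether its 2 libraries per arm came from separate cultures, so the authors' p-values measure only the spread between those libraries, which may be technical.

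Entry into mitosis is driven by cyclin B bound to CDK1, which CDC25 phosphatases switch on. Aurora and Polo-like kinases, kinesins and microtubule-binding proteins then build the spindle, kinetochores attach chromosomes to it, and the spindle checkpoint holds the anaphase-promoting complex back until attachment is complete, after which separase cuts cohesin and the cell divides. Many of these genes are transcribed late in the cycle through a cell cycle homology region (CHR) near the start of transcription, bound by the MuvB complex with MYBL2 and FOXM1, and through CCAAT boxes bound by NF-Y. In bulk RNA, fewer cells in mitosis and less transcript per cell cannot be told apart.

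Promoter sequences are shown because the rule did not use them and many of the genes hold the same short motifs. RefSeq promoters of GRCh38.p14, running from 250 bases before to 50 bases after the annotated start, were matched by symbol for 40 of the 48 genes. The CHR was searched as TTTGAA or TTTAAA and the CCAAT box as CCAAT, each on both strands. The CHR letters lay in 34 of the 40 genes (85%), the CCAAT letters in 32 (80%) and both in 27 (67.5%). Of 7245 genes with values in all 10 lines and a promoter, 19.3% held the CHR letters, 44.1% the CCAAT letters and 10.4% both, and of all 27305 genes with a promoter of the same length, 27.9%, 39.7% and 12.7% did. A list of 39 replication and G1/S genes, 34 of them matched, held the CHR letters in 6 (17.6%) and the CCAAT letters in 20 (58.8%). Of 60 CHR matches in the mitotic promoters, 26 began between positions −80 and −10 from the start, in 21 genes, as did 35 of the 70 CCAAT matches, in 28 genes. These are matches of letters and not measured binding sites.

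**Figure D1:**
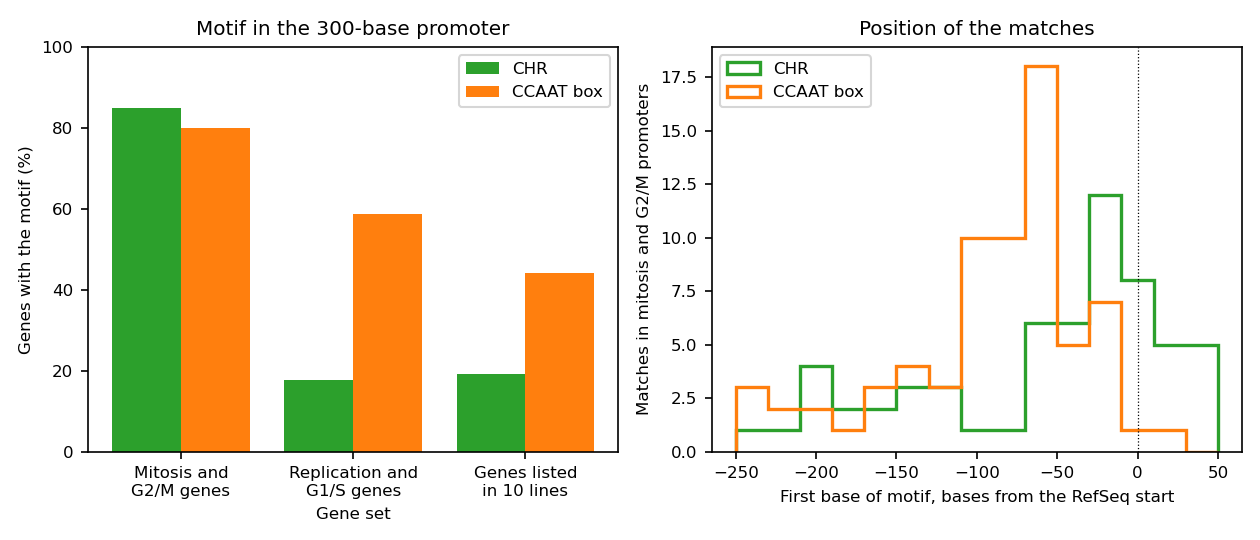
Left, percent of genes whose RefSeq promoter holds the CHR or the CCAAT letters, for 40 mitosis and G2/M genes, 34 replication and G1/S genes and 7245 genes with values in all 10 lines; right, number of matches in the mitotic promoters (vertical axis) by the position of their first base from the annotated start (horizontal axis, bases). The CHR bars stand at 85%, 17.6% and 19.3%, and matches of both motifs are densest just before the start.

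The promoters of 5 genes that fell across the lines and of 4 well-known mitotic genes that did not pass are printed, each as the 110 bases before the RefSeq start, with CHR and CCAAT letters on either strand in capitals (TTCAAA and ATTGG are the reverse forms). Those of HMMR (chr5:163460522-163460631), NCAPG (chr4:17810869-17810978), KIF11 (chr10:92593020-92593129) and ESPL1 (chr12:53268189-53268298) are on the plus strand and that of BUB1 (chr2:110678064-110678173) on the minus strand. Of the other 4, CCNB1 (chr5:69167040-69167149), CCNB2 (chr15:59105036-59105145) and PLK1 (chr16:23678779-23678888) are on the plus strand and MKI67 (chr10:128126424-128126533) on the minus strand.
HMMR: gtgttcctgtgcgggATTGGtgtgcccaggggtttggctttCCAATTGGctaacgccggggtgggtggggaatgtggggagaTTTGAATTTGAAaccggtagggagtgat
NCAPG: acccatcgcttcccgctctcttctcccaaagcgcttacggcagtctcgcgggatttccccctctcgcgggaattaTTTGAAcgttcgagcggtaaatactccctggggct
KIF11: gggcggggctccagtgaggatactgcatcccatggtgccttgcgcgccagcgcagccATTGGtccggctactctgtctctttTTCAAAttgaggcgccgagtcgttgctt
ESPL1: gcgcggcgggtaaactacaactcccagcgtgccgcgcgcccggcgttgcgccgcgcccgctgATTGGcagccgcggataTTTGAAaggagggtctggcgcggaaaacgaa
BUB1: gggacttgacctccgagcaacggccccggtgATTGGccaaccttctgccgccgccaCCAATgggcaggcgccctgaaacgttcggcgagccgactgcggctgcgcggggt
CCNB1: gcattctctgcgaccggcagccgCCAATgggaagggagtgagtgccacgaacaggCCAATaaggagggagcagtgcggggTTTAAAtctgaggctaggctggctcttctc
CCNB2: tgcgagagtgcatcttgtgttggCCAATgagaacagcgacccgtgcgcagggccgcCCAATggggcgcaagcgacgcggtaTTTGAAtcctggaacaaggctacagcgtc
PLK1: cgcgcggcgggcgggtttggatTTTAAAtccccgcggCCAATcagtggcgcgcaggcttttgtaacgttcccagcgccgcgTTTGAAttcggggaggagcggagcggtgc
MKI67: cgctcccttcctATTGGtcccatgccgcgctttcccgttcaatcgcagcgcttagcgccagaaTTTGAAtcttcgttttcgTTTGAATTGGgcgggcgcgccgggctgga
In 8 of these 9 chosen promoters a CHR match began between positions −47 and −22. HMMR has 2 that follow each other directly, at −28 and −22, and KIF11 has its match on the reverse strand at −28. The 9 do not stand for the rest: of all 40 matched genes 21 had a CHR match that began between −80 and −10. Among genes that fell and are not printed, AURKB, NEK2 and SGO1 held no CHR letters. Those of KIF20B and NUF2 began after the start. BUB1 has no CHR letters in its promoter, and NCAPG no CCAAT letters. In HMMR the CCAAT matches at −69 and −66 lie on opposite strands and overlap, and in MKI67 the CHR at −29 overlaps a reversed CCAAT at −24. Of the 14 matched genes that fell across lines 10 held the CHR letters (71.4%), and of the 26 others 24 did (92.3%). Whether the letters go with the fold changes was not tested.

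The authors' deposited table holds, for each gene and line, the log2 fold change of GSK3368712 over DMSO with its standard error (SE), an adjusted p from DESeq2 and the mean normalised read count. No label states the direction; GSK3368712 over DMSO was taken from which name comes first in each row label. Between 12721 and 14565 genes were listed per line, and the mean normalised counts of all genes summed to 57647556 to 108557964 per line. For the 48 genes the mean normalised counts in the authors' deposited table ran from 246 to 108780, and the SE from 0.055 to 0.66. The median SE over these genes lay between 0.07 and 0.0945 in the 6 LUSC lines, against 0.203 in NCIH1563, 0.364 in NCIH1975, 0.258 in NCIH522 and 0.292 in PC9, so smaller changes could be called in the LUSC lines than in the LUAD lines. Epithelial keratins KRT8, KRT18 and KRT19 were listed in all 10 lines, EPCAM in 8 and CDH1 in 7. Of blood cell markers PTPRC and CD3E were listed in none, LYZ in 1 line and CD68 in 8. Of endothelial markers VWF was listed in none, KDR in 2 lines and PECAM1, CDH5 and TEK in 1 each, and of fibroblast markers COL1A1 was listed in 10, PDGFRB in 4, COL3A1 in 3, COL1A2 in 2 and DCN in 1. The part of these genes in the results was not tested. Of squamous markers TP63 was listed in 2 LUSC and 2 LUAD lines, SOX2 in 4 and 1, KRT5 in 2 and 1, KRT6A in 1 and 1, and DSG3 in none. Of adenocarcinoma markers NKX2-1 was listed in 3 LUSC lines and 1 LUAD line, NAPSA in 2 and 1, SFTA3 in 1 and 1, SFTPB in 1 and 0, and HNF4A in none. No adenocarcinoma marker was listed in more LUAD than LUSC lines, but 6 lines carry the LUSC label and 4 the LUAD label. By share, SFTA3 and the squamous markers TP63 and KRT6A were listed in more of the LUAD lines. SOX2, KRT5, NKX2-1, NAPSA and SFTPB were listed in a larger share of the LUSC lines.

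Most of the 48 genes had values below 0, that is lower with GSK3368712, in each of the LUSC lines, from 40 of 48 in NCIH520 to 48 of 48 in NCIH226. Over all lines, 379 of 476 entries (1 gene in 1 line) were below 0. By the authors' adjusted p of at most 0.05, 212 entries were lower (44.5%, against 13.8% of all entries of all genes) and 14 were higher (2.94%, against 13.7%). In the 6 LUSC lines 186 of 288 entries were lower and 4 were higher. Of all genes, 12.3% (NCIH520) to 23.4% (EBC1) were lower per LUSC line and 11.4% (NCIH520) to 23% (EBC1) higher. The 4 higher entries were CDC25B and KIF20A in EBC1, CENPF in SKMES1 and MKI67 in NCIH520. The changes were small: 12 entries carried the authors' mark for an adjusted p of at most 0.05 with a change of at least 1 on the log2 scale, all of them lower (2.64% of all entries carried it lower and 3.38% higher).

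NCIH226 had the most called genes: 39 of 48 were lower and 0 higher (all genes 15.8% and 15.5%), all 48 values were below 0, and their median was −0.38. SW900 had 37 lower and 0 higher (17.7% and 18%) with a median of −0.30. In EBC1 35 were lower and 2 higher (23.4% and 23%), with a median of −0.42, and in LK2 32 were lower and 0 higher (19.5% and 19.9%), with a median of −0.26. The counts were smaller in SKMES1, with 25 lower and 1 higher (15.6% and 15.8%; median −0.22), and in NCIH520, with 18 lower and 1 higher (12.3% and 11.4%; median −0.18). The median of all genes stood between −0.001 and 0.005 in these 6 lines. In each of the 6 LUSC lines 7 genes were lower by the authors' adjusted p, namely HMMR, TPX2, KIF4A, SGO1, CCNB1, BUB1 and AURKB, against 2.58% of all genes with values in all 10 lines.

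The 4 LUAD lines differed from one another. In NCIH1975 44 of 46 values were below 0 with a median of −0.78, the lowest of the 10 lines. In this line 14 genes were lower and 0 higher (3.58% and 4.33% of all genes). NCIH1563 had 12 genes lower and 10 higher, near the shares of all genes in that line (24.8% and 23.3%), with 25 of 48 values below 0 and a median of −0.03. NCIH522 had 0 of 47 genes called in either direction (0.75% and 0.912%) with a median of −0.05, and PC9 0 of 47 (1.92% and 2.56%) with a median of 0.13 and 21 values below 0. All-gene medians in the 4 lines were −0.01, 0.04, −0.01 and 0.005 for NCIH1563, NCIH1975, NCIH522 and PC9.

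**Figure D2:**
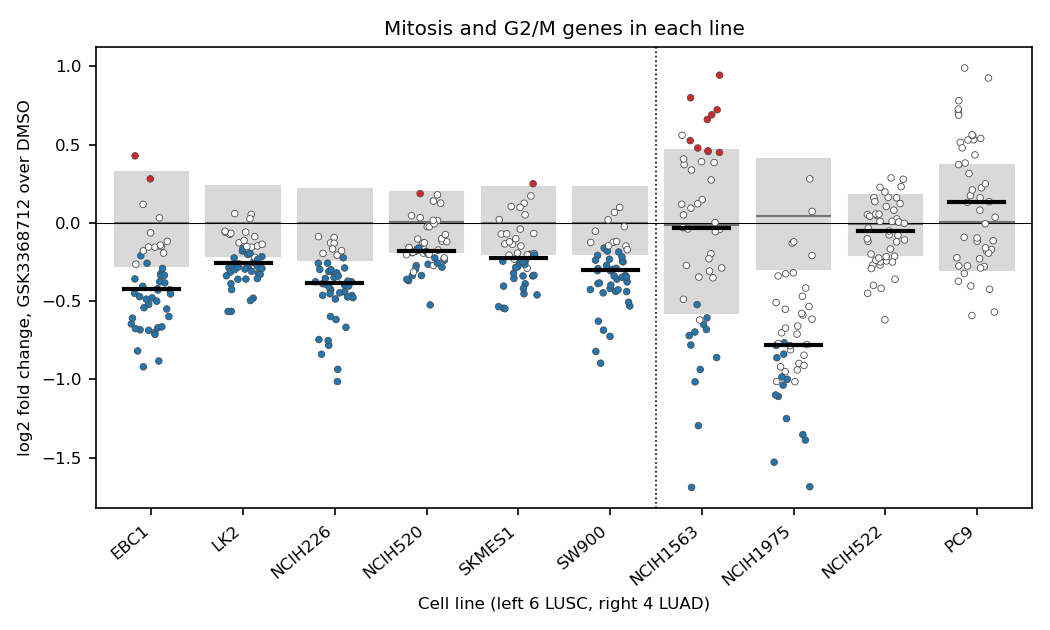
Log2 fold change of GSK3368712 over DMSO (vertical axis) for each mitosis and G2/M gene in each line (horizontal axis), from the authors' deposited table; blue and red points are genes lower and higher at an adjusted p of at most 0.05, white points are not called, black bars are medians of the mitotic genes, and grey boxes span the quartiles of all genes listed in the line with their median. The black bars lie below the grey medians in all lines but PC9, from −0.78 in NCIH1975 to 0.13 in PC9.

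**Figure D3:**
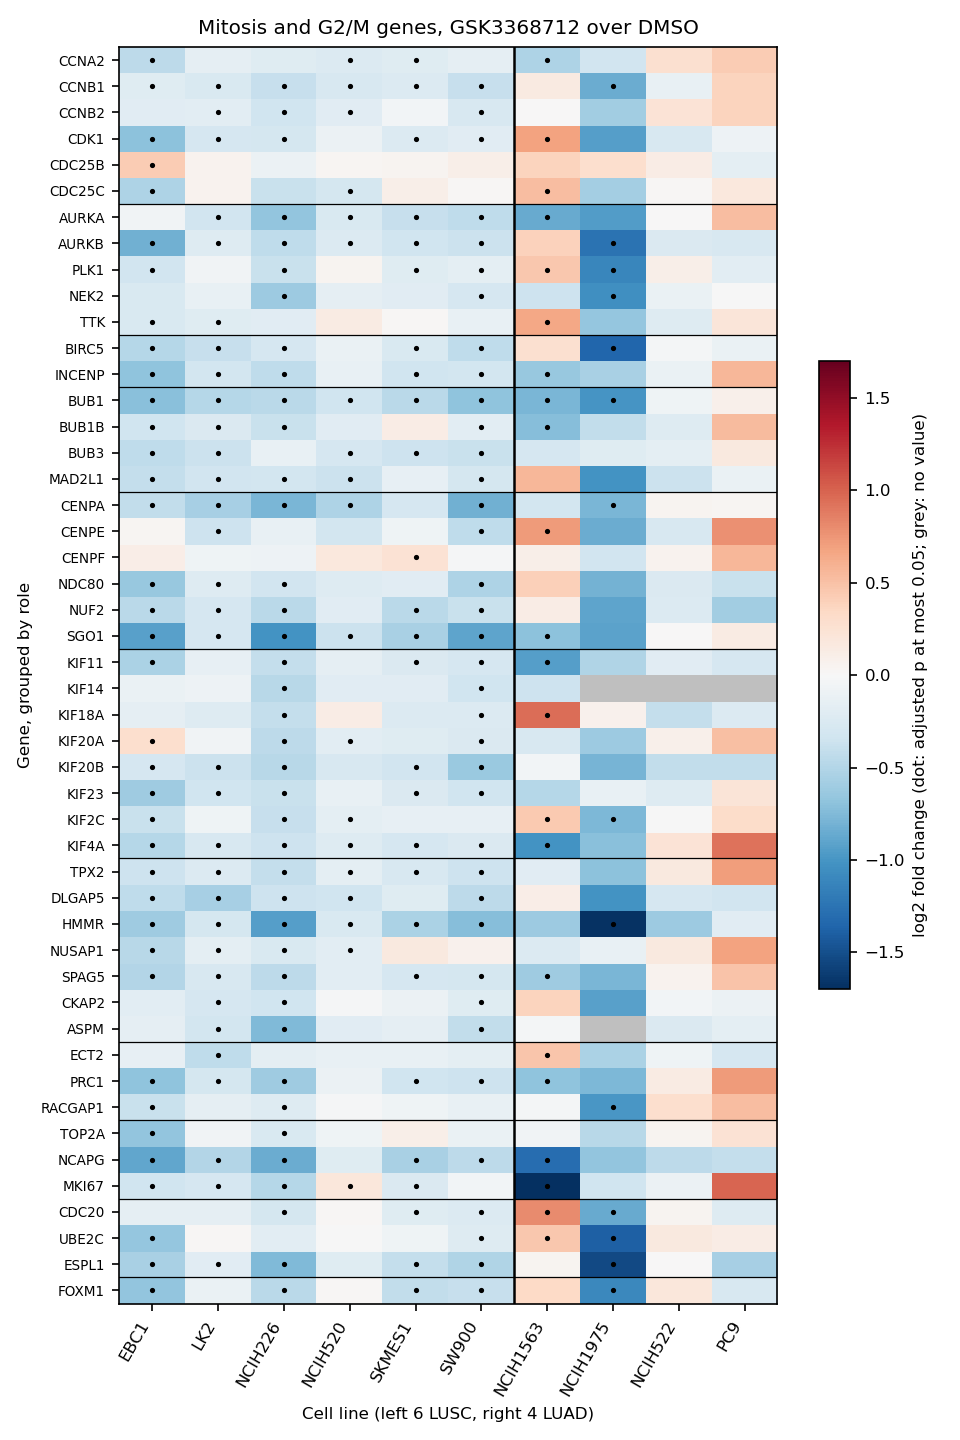
Log2 fold change of each gene (rows, grouped by role) in each line (columns, 6 LUSC left of the line and 4 LUAD right), from the authors' deposited table; dots mark an adjusted p of at most 0.05 and grey cells have no value. The LUSC columns are mostly blue, NCIH1975 is the darkest column, NCIH1563 holds both colours, and the red cells of PC9 carry no dot.

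To ask which genes changed across lines, 1 fold change per line was taken as 1 replicate in limma over the 9339 genes listed in all 10 lines, and p was adjusted by Benjamini-Hochberg over all of these. Of the 46 genes 15 fell (32.6%, against 12.1% of all genes) and 0 rose (9.5% of all genes). At an unadjusted p under 0.05, 23 were lower (18.3% of all genes) and 0 higher. Of the means 44 were below 0 (95.7%, against 49% of all genes), with a median of −0.24 against 0.004 for all genes. In all 10 lines 5 genes were below 0, NCAPG, KIF20B, HMMR, KIF11 and NEK2 (5.43% of all genes were), and 18 were in at least 9 (14.2%). In all 6 LUSC lines 31 genes were below 0 (17.2% of all genes), and in all 4 LUAD lines 5 were (9.87%). The set of genes that passed depended on the lines used: 31 of 46 fell in the 6 LUSC lines alone (15.5% of all genes) and 0 in the 4 LUAD lines alone (0.0321%), while leaving out 1 line gave between 10 genes (without SW900, 9.42% of all genes) and 21 (without NCIH1563, 15.8%, or without PC9, 12.2%).

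**Figure D4:**
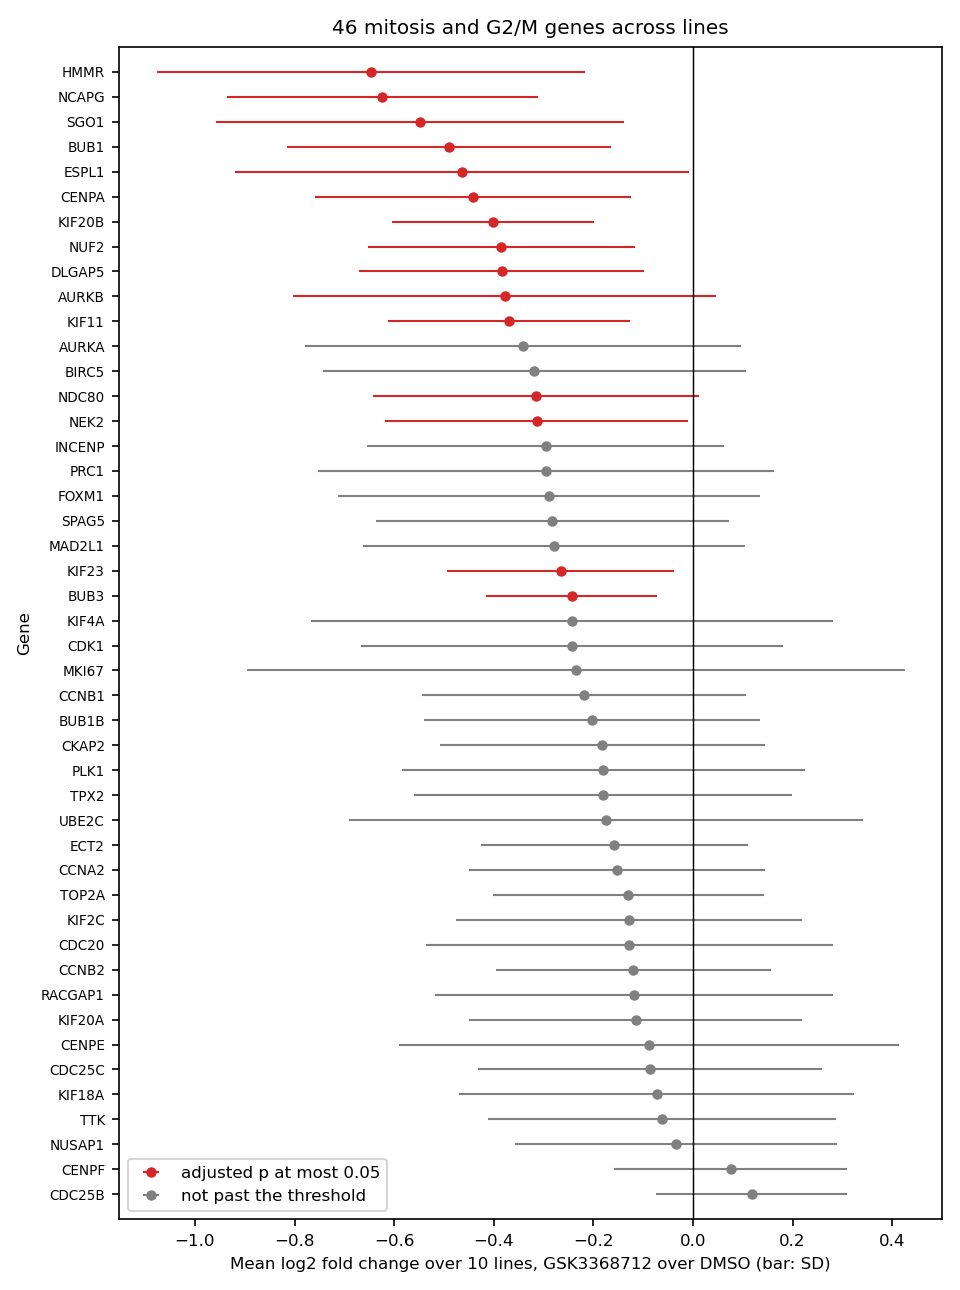
Mean log2 fold change over 10 lines (horizontal axis; bar, SD over lines) of the 46 mitosis and G2/M genes with values in all lines (rows); red marks a limma adjusted p of at most 0.05. The means run from −0.65 (HMMR) to 0.12 (CDC25B), and 15 genes are red.

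The cyclins and the switch of CDK1 were among the genes that did not pass, although 5 of their 6 means were below 0. CCNB1, the main mitotic cyclin, was at −0.39 (NCIH226) to −0.21 (EBC1) in the LUSC lines with a median of −0.27, and at 0.15 in NCIH1563, −0.84 in NCIH1975, −0.12 in NCIH522 and 0.38 in PC9, in the authors' deposited table. Its 6 LUSC values lay close together and the 4 LUAD values lay on both sides of them. Its mean was −0.22 ± 0.33 (SD, n = 10; limma adjusted p = 0.131). CDK1, its kinase, was at −0.70 (EBC1) to −0.10 (NCIH520) in the LUSC lines of the authors' deposited table, median −0.26, and at 0.69 in NCIH1563, −0.94 in NCIH1975, −0.27 in NCIH522 and −0.09 in PC9. NCIH1563 alone was above 0. The mean over lines was −0.24 ± 0.42 (n = 10; limma adjusted p = 0.172). CCNB2 and CCNA2, a second B-type cyclin and the cyclin of S phase and G2, had means of −0.12 ± 0.28 and −0.15 ± 0.30 (n = 10; limma adjusted p = 0.358 and 0.258). The phosphatase CDC25C had a mean of −0.09 ± 0.35 (n = 10; limma adjusted p = 0.598). CDC25B, the phosphatase that starts CDK1 activation at the centrosome, had the highest mean of the 46 genes, 0.12 ± 0.19 (n = 10; limma adjusted p = 0.258), and its value of 0.43 in EBC1 passed the authors' adjusted p in their deposited table (2.36e-07).

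Among 5 mitotic kinases AURKB and NEK2 fell (12.1% of all genes did). AURKB (ENSG00000178999, chr17:8204733-8210600), the enzyme of the chromosomal passenger complex, was at −0.82 (EBC1) to −0.22 (LK2) in the LUSC lines of the authors' deposited table, median −0.35, and at 0.39 in NCIH1563, −1.25 in NCIH1975, −0.24 in NCIH522 and −0.28 in PC9. Only NCIH1563 was above 0, the mean was −0.38 ± 0.42 (n = 10; limma adjusted p = 0.0388), and the call was lost when any line other than NCIH1563 was left out. NEK2 (ENSG00000117650, chr1:211658657-211675630), which helps centrosomes separate, was below 0 in 10 of 10 lines, from −1.04 in NCIH1975 to −0.01 in PC9, with a mean of −0.31 ± 0.30 (n = 10; limma adjusted p = 0.0287), and was lost without NCIH226 or SW900 and in a fit corrected for GC content and length. AURKA, the Aurora kinase of centrosomes and spindle poles, ran from −0.95 in NCIH1975 and −0.86 in NCIH1563 to 0.53 in PC9 (authors' deposited table), and its mean of −0.34 ± 0.44 did not pass (n = 10; limma adjusted p = 0.0655). PLK1, which acts from mitotic entry to cytokinesis, stood between −0.38 (NCIH226) and 0.05 (NCIH520) in the LUSC lines of the authors' deposited table, median −0.18, with 0.46 in NCIH1563, −1.11 in NCIH1975, 0.11 in NCIH522 and −0.18 in PC9. Its mean was −0.18 ± 0.40, and that of the checkpoint kinase TTK −0.06 ± 0.35 (n = 10; limma adjusted p = 0.294 and 0.721). The partners of AURKB did not pass: BIRC5 (survivin) had a mean of −0.32 ± 0.43 and the scaffold INCENP −0.30 ± 0.36 (n = 10; limma adjusted p = 0.0776 and 0.0609).

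Of the 4 spindle checkpoint genes 2 fell (12.1% of all genes did). BUB1 (ENSG00000169679, chr2:110637698-110678114), a kinase that marks centromeres and recruits checkpoint proteins, stood between −0.71 (EBC1) and −0.34 (NCIH520) in the LUSC lines of the authors' deposited table, median −0.47, and at −0.78 in NCIH1563, −0.999 in NCIH1975, −0.08 in NCIH522 and 0.08 in PC9. Of its 10 values 8 were called lower by the authors, the 2 others being the smallest in size. Its mean was −0.49 ± 0.33 (n = 10; limma adjusted p = 0.00372). BUB3 (ENSG00000154473, chr10:123154277-123170467), its partner, was at −0.43 (EBC1) to −0.13 (NCIH226) in the LUSC lines and at −0.29, −0.21, −0.17 and 0.16 in NCIH1563, NCIH1975, NCIH522 and PC9 in the authors' deposited table. Its mean was −0.24 ± 0.17 (n = 10; limma adjusted p = 0.0199), a call lost without SKMES1 or SW900. BUB1B (BUBR1) and MAD2L1, parts of the complex that inhibits CDC20, had means of −0.20 ± 0.34 and −0.28 ± 0.38 (n = 10; limma adjusted p = 0.172 and 0.0918). The BUB1B locus overlaps the readthrough gene BUB1B-PAK6 on the same strand, so its value may share reads.

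Of 6 kinetochore and centromere genes 4 fell (12.1% of all genes did). The role groups, of 1 to 7 tested genes, were not compared by a test. SGO1 (ENSG00000129810, chr3:20160593-20186292), shugoshin, which protects centromeric cohesin, was at −1.01 (NCIH226) to −0.28 (LK2) in the LUSC lines of the authors' deposited table, median −0.72, and at −0.70 in NCIH1563, −0.91 in NCIH1975, 0.005 in NCIH522 and 0.14 in PC9. NCIH522 and PC9 were above 0, with SEs of 0.31 and 0.376, and the other 8 lines were below. The mean over lines was −0.55 ± 0.41 (n = 10; limma adjusted p = 0.00536). CENPA (ENSG00000115163, chr2:26764289-26801067), the histone H3 variant that marks the centromere, was at −0.82 (SW900) to −0.29 (SKMES1) in the LUSC lines, median −0.54, and at −0.31, −0.78, 0.05 and 0.04 in NCIH1563, NCIH1975, NCIH522 and PC9 in the authors' deposited table. The same 2 lines, NCIH522 and PC9, were above 0 (SEs 0.217 and 0.281) and the other 8 below. Its mean was −0.44 ± 0.32 (n = 10; limma adjusted p = 0.00604). NUF2 (ENSG00000143228, chr1:163266576-163355764) and NDC80 (ENSG00000080986, chr18:2571511-2616635), 2 subunits of the Ndc80 complex that grips microtubules, fell by 0.38 ± 0.27 and 0.32 ± 0.33 (n = 10; limma adjusted p = 0.0067 and 0.0354), and both were above 0 in NCIH1563 alone, at 0.12 and 0.41 in the authors' deposited table. The NDC80 call was lost when any line other than NCIH1563 was left out and in a fit corrected for GC content and length. CENPE, a kinetochore motor, ran from −0.85 in NCIH1975 to 0.78 in PC9 (authors' deposited table) with a mean of −0.09 ± 0.50, and CENPF, an outer kinetochore protein, had a mean above 0, 0.08 ± 0.23 (n = 10; limma adjusted p = 0.708 and 0.538). CENPA and SGO1 share their loci with other transcripts (SLC35F6 on the same strand and SGO1-AS1 on the other). Further genes that fell overlap others too, among them NUF2 (RGS5) and NCAPG (LCORL) on the other strand and NEK2 (FDPSP8) on the same. Whether the counting used strand is not stated, and strand would not separate overlaps on the same strand.

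Of 7 kinesins with values in all lines 3 fell (12.1% of all genes did). KIF20B (ENSG00000138182, chr10:89701610-89774939), a motor of late mitosis, differed least between lines relative to the SEs: all 10 values lay between −0.78 (NCIH1975) and −0.04 (NCIH1563) in the authors' deposited table. Its mean was −0.40 ± 0.20 (n = 10; limma adjusted p = 0.00205). KIF11 (ENSG00000138160, chr10:92593286-92655395), the motor that pushes spindle poles apart, was below 0 in 10 of 10 lines, at −0.54 (EBC1) to −0.14 (LK2) in the LUSC lines and at −0.94 in NCIH1563, −0.51 in NCIH1975, −0.20 in NCIH522 and −0.28 in PC9 (authors' deposited table). NCIH1563 was its lowest line. The mean over lines was −0.37 ± 0.24 (n = 10; limma adjusted p = 0.00597). KIF23 (ENSG00000137807, chr15:69414246-69448427), a motor of the central spindle, had a mean of −0.27 ± 0.23 (n = 10; limma adjusted p = 0.0264) and was lost when EBC1, LK2, NCIH226, SKMES1 or SW900 was left out. KIF4A, a chromosome-bound motor, had the widest split of the kinesins, from −1.01 in NCIH1563 to 0.93 in PC9 in the authors' deposited table, with all 6 LUSC values between −0.49 and −0.22, and did not pass (−0.24 ± 0.52, n = 10; limma adjusted p = 0.254). KIF2C, a microtubule depolymerase, KIF20A, a motor of cytokinesis, and KIF18A, which sets chromosome alignment, had means of −0.13 ± 0.35, −0.11 ± 0.33 and −0.07 ± 0.40 (n = 10; limma adjusted p = 0.408, 0.453 and 0.704). KIF14 was below 0 in 7 of 7 lines that list it, from −0.48 in NCIH226 to −0.09 in LK2 (authors' deposited table), and did not pass when genes listed in at least 7 lines were fitted (mean −0.25 ± 0.14, n = 7; limma adjusted p = 0.0547).

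HMMR and DLGAP5 fell among the spindle assembly factors. HMMR (ENSG00000072571, chr5:163460203-163491945), a spindle-pole protein and hyaluronan receptor, had the lowest mean of the 46 genes: it ran from −0.94 (NCIH226) to −0.26 (NCIH520) in the LUSC lines of the authors' deposited table, median −0.57, and at −0.62 in NCIH1563, −1.69 in NCIH1975, −0.62 in NCIH522 and −0.19 in PC9. All 10 values were below 0 and the NCIH1975 value stood apart with an SE of 0.582. Its mean over the lines was −0.65 ± 0.43 (n = 10; limma adjusted p = 0.00256). DLGAP5 (ENSG00000126787, chr14:55148112-55191678), which bundles spindle microtubules, was above 0 in NCIH1563 alone (0.12 in the authors' deposited table) and had a mean of −0.38 ± 0.29 (n = 10; limma adjusted p = 0.00861). TPX2, the activator of AURKA, was at −0.40 (NCIH226) to −0.16 (NCIH520) in the LUSC lines and at −0.20, −0.70, 0.16 and 0.71 in NCIH1563, NCIH1975, NCIH522 and PC9 in the authors' deposited table, and did not pass (−0.18 ± 0.38, n = 10; limma adjusted p = 0.267). SPAG5, NUSAP1 and CKAP2, which bind spindle microtubules, had means of −0.28 ± 0.35, −0.03 ± 0.32 and −0.18 ± 0.33 (n = 10; limma adjusted p = 0.0702, 0.848 and 0.205). ASPM, a spindle-pole protein, was below 0 in 9 of 9 lines that list it and fell by 0.27 ± 0.21 when genes listed in at least 7 lines were fitted (n = 9; limma adjusted p = 0.0359). HMMR, SPAG5 and PRC1 each overlap an antisense gene.

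NCAPG and ESPL1 fell among the genes of chromosome structure and anaphase. NCAPG (ENSG00000109805, chr4:17810902-17844862), a subunit of condensin I, had the smallest adjusted p of the 46 genes: it was at −0.88 (EBC1) to −0.20 (NCIH520) in the LUSC lines of the authors' deposited table, median −0.52, and at −1.30 in NCIH1563, −0.67 in NCIH1975, −0.45 in NCIH522 and −0.40 in PC9. All 10 values were below 0 with NCIH1563 lowest. Its mean over the lines was −0.62 ± 0.31 (n = 10; limma adjusted p = 0.000689). ESPL1 (ENSG00000135476, chr12:53268299-53293643), separase, was at −0.75 (NCIH226) to −0.19 (LK2) in the LUSC lines, median −0.46, and at 0.05, −1.53, 0.01 and −0.57 in NCIH1563, NCIH1975, NCIH522 and PC9 in the authors' deposited table. NCIH1975 was far below the other lines. Its mean over the lines was −0.46 ± 0.46 (n = 10; limma adjusted p = 0.02). MKI67, the coat of mitotic chromosomes used to mark dividing cells, ran over the widest range of the 46 genes: −0.49 (NCIH226) to 0.19 (NCIH520) in the LUSC lines, then −1.69 in NCIH1563, −0.34 in NCIH1975, −0.10 in NCIH522 and 0.99 in PC9 in the authors' deposited table. Its mean of −0.24 ± 0.66 did not pass (n = 10; limma adjusted p = 0.378). TOP2A, the topoisomerase that untangles sister chromatids, had a mean of −0.13 ± 0.27, and the activator CDC20 and the ubiquitin-conjugating enzyme UBE2C of the anaphase-promoting complex −0.13 ± 0.41 and −0.17 ± 0.52 (n = 10; limma adjusted p = 0.31, 0.475 and 0.419).

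Genes of cytokinesis did not pass: the midzone bundler PRC1 had a mean of −0.29 ± 0.46, the exchange factor ECT2 of −0.16 ± 0.27 and the GTPase-activating protein RACGAP1 of −0.12 ± 0.40 (n = 10; limma adjusted p = 0.121, 0.208 and 0.505). FOXM1, the transcription factor of the list, was at −0.68 (EBC1) to 0.02 (NCIH520) in the LUSC lines, median −0.41, and at 0.34, −1.10, 0.20 and −0.28 in NCIH1563, NCIH1975, NCIH522 and PC9 in the authors' deposited table. It was called lower in 5 of 10 lines, and its mean of −0.29 ± 0.42 did not pass (n = 10; limma adjusted p = 0.106).

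The fold changes were spread over the lines beyond the authors' SEs for most of the genes, as for most genes of the table. Cochran's Q test, which sets the spread of the fold changes against the authors' SEs, passed for 41 of the 46 genes at an adjusted p of at most 0.05 (65.9% of all genes), and not for KIF20B, NUF2, DLGAP5, BUB3 and NEK2. Those SEs rest on 2 libraries per arm whose spread may be technical, so the test does not show that the response to the compound differs. The share of the spread beyond the SEs (I2) ran from 9.67% for KIF20B and 16.4% for NUF2 to 89.2% for UBE2C and 92.5% for MKI67. Between the 4 LUAD and 6 LUSC lines 0 of 46 genes differed in limma (adjusted p at most 0.05; 0.0107% of all genes were lower in LUAD and 0% higher), and 0 had an unadjusted p under 0.05 (5.47% of all genes). Without NCIH1975 11 genes had an unadjusted p under 0.05 and without NCIH1563 1 had, with 0 past the adjusted p in both fits. The shares of all genes under 0.05 in these 2 fits are not given here, so the 11 cannot be judged against them. In the fit of all 10 lines the smallest unadjusted p was that of CENPA, with means of −0.25 in LUAD and −0.57 in LUSC, a difference of 0.32 with a 95% confidence interval from −0.08 to 0.71 (limma adjusted p = 0.965). Intervals of this width do not show that the 2 labels respond alike.

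In NCIH1563 the genes were called in both directions at shares near those of all genes (12 and 10 of 48, beside 24.8% and 23.3%). Lower in it by the authors' adjusted p were MKI67, NCAPG, KIF4A, KIF11, AURKA, BUB1, BUB1B, SGO1, PRC1, INCENP, SPAG5 and CCNA2. Higher were KIF18A (0.94), CDC20 (0.80), CENPE (0.72), CDK1 (0.69), TTK (0.66), CDC25C (0.53), ECT2 (0.48), UBE2C (0.46), PLK1 (0.46) and KIF2C (0.45), in the authors' deposited table. Of its 12 lower genes, 10 were above 0 in PC9 and 12 were below 0 in NCIH1975. Of its 10 higher genes, 5 were above 0 in PC9 and 9 were below 0 in NCIH1975. Of all the mitotic genes 44 of 46 were below 0 in NCIH1975 and 21 of 47 in PC9, where 0 were called. Over all genes NCIH1563 and PC9 also ran in opposite directions (r = −0.197). Checkpoint genes lay on both sides in NCIH1563, with BUB1 and BUB1B lower and TTK higher. Over all genes of NCIH1563 the fold change correlated with GC content (r = 0.30) and with transcript length (r = −0.16, on the log2 scale), and over the mitotic genes r was 0.04 and −0.27; the part of these in the calls was not tested. NCIH1975 gave 8 of the 12 entries that carried the authors' mark, HMMR, ESPL1, UBE2C (−1.39), BIRC5 (−1.35), AURKB, PLK1, FOXM1 and NEK2, and the other 4 were MKI67, NCAPG and KIF4A in NCIH1563 and SGO1 in NCIH226 (authors' deposited table). The shares of all genes marked in single lines are not given here, so the 8 cannot be judged against them. In PC9 the highest values in the authors' deposited table were MKI67 (0.99), KIF4A (0.93), CENPE (0.78), PRC1 (0.73) and TPX2 (0.71), none past the adjusted p.

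**Figure D5:**
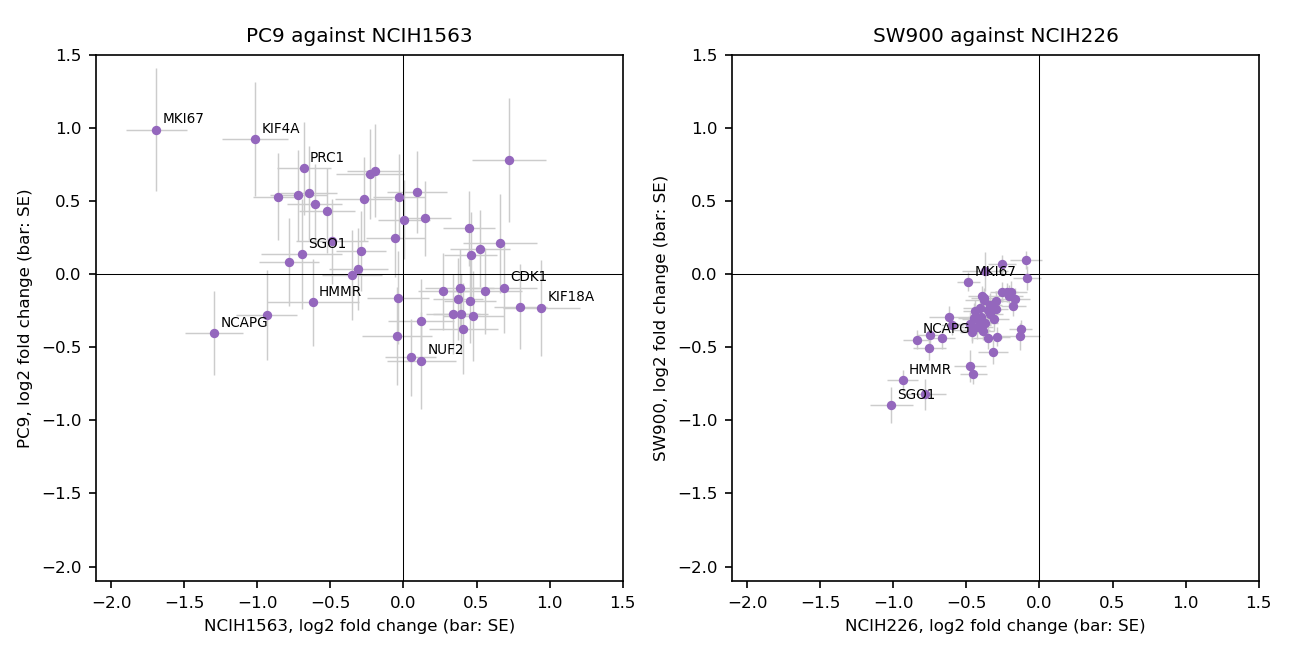
Log2 fold change of the mitosis and G2/M genes in PC9 against NCIH1563 (left) and in SW900 against NCIH226 (right), from the authors' deposited table; each point is a gene and bars are the authors' SE. On the left MKI67 and KIF4A lie in the upper left corner and r over 46 genes is −0.395, while on the right nearly all points lie below and left of 0 and r is 0.689.

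As a description of how alike the lines were, Pearson's r over the 46 genes was computed for each pair of lines, each of which has its own controls. The genes are not independent and share the libraries of their line. Over the 15 pairs of LUSC lines r ran from 0.26 to 0.748 with a median of 0.476, beside a median of 0.496 over all genes. Over the 6 pairs of LUAD lines it ran from −0.395 (NCIH1563 with PC9; −0.197 over all genes) to 0.46 (NCIH522 with PC9), with a median of 0.0411 beside 0.281 over all genes.

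Across the 10 lines the genes mostly moved together. The median r over 1035 gene pairs was 0.517, beside 0.00563 over pairs of all genes, and 81.8% of pairs were above 0. It was 0.64 without NCIH1563, 0.40 without NCIH1975, 0.472 without PC9 and 0.418 over the 6 LUSC lines. The genes closest to the median of the others were RACGAP1 (r = 0.958), KIF2C (0.932), CCNB1 (0.92), CCNB2 (0.919) and UBE2C (0.91), none of which passed across lines, and the farthest were NCAPG (0.108), KIF18A (0.101), KIF11 (0.0863) and CDC25B (−0.402), over 10 lines that share each line's libraries. Outside the list, the 8 genes that followed the median of the mitotic genes most closely were CKAP2L (r = 0.972), TIMELESS (0.945), KIFC1 (0.944), PTTG1 (0.939), NCAPD2 (0.939), CDK2 (0.936), SMURF1 (0.935) and TACC3 (0.932), over the same 10 lines.

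Other genes of the same machinery were taken from lists of their roles. Over all genes 12.1% fell and 9.5% rose, and only genes with values in all 10 lines were tested. Of 34 other kinetochore and centromere genes 10 fell (29.4%) and 0 rose. The lowest was CENPH, an inner kinetochore subunit, with a mean of −0.92 ± 0.41, below 0 in 10 of 10 lines (n = 10; limma adjusted p = 0.000227). SPC24 and SPC25, the other subunits of the Ndc80 complex, fell by 0.65 ± 0.27 and 0.61 ± 0.28 (n = 10; limma adjusted p = 0.000288 and 0.000467). All 4 subunits of the complex thus passed in the fit of all 10 lines. The NDC80 call was lost when any line other than NCIH1563 was left out. Of 22 other spindle, centrosome and motor genes 7 fell (31.8%), with the spindle protein TROAP at −0.74 ± 0.55 and the kinesin KIFC1 at −0.41 ± 0.30, and 1 rose, NUMA1, which anchors microtubules at the poles, at 0.29 ± 0.15 with 10 of 10 values above 0 (n = 10; limma adjusted p = 0.00404, 0.0065 and 0.00583). Of 27 other G2/M transcripts 6 fell (22.2%) and 0 rose, among them the kinase PBK (−0.53 ± 0.28) and DEPDC1 (−0.39 ± 0.17; n = 10; limma adjusted p = 0.00126 and 0.00149). Of 20 cohesin and condensin genes 17 had values in all 10 lines, and of these 3 fell (17.6%) and 0 rose: SMC4 and SMC2, the motor subunits of condensin, and NCAPD3 of condensin II, at −0.26 ± 0.14, −0.24 ± 0.18 and −0.45 ± 0.42 (n = 10; limma adjusted p = 0.0102, 0.0242 and 0.0168). Not tested were ESCO2, below 0 in 8 of 8 lines (mean −0.47 ± 0.19), PDS5B, below 0 in 8 of 9 (−0.22 ± 0.17), and NIPBL, below 0 in 2 of 9 (0.15 ± 0.23). Of 18 genes of the anaphase-promoting complex and its partners 2 fell (11.1%) and 0 rose, ANAPC11 (−0.39 ± 0.25) and CDC27 (−0.22 ± 0.17), and its inhibitor FBXO5 did not pass (−0.28 ± 0.32; n = 10; limma adjusted p = 0.00453, 0.0322 and 0.051). KIFC1 stands in 2 of these lists.

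Among the MuvB, DREAM and E2F regulators of the mitotic programme 4 of 20 tested genes fell (20%, beside 12.1% of all genes) and 1 rose (5%, beside 9.5%). The retinoblastoma gene RB1 fell by 0.61 ± 0.30, below 0 in 10 of 10 lines, E2F5, a repressor E2F, fell by 0.39 ± 0.28, and the repressor E2F6 rose by 0.25 ± 0.15 (n = 10; limma adjusted p = 0.000622, 0.00692 and 0.013). MYBL2, which activates CHR promoters with MuvB, had a mean of −0.12 ± 0.43 and E2F1, an activator of S phase genes, of −0.19 ± 0.33 (n = 10; limma adjusted p = 0.516 and 0.187), and their r with the median of the mitotic genes over 10 lines was 0.836 and 0.802. MYBL2 was called higher in NCIH1563 (0.63) and lower in EBC1 (−0.65) and NCIH1975 (−0.92) in the authors' deposited table. Of 14 inhibitors and entry brakes 11 had values in all 10 lines, and of these 0 fell and 1 rose (9.09%, beside 9.5% of all genes), CDKN1A (p21), by 0.44 ± 0.53 (n = 10; limma adjusted p = 0.0484). CDKN1A was called higher in 5 lines, LK2 (1.27), NCIH1563 (1.18), NCIH520 (0.75), SW900 (0.40) and NCIH226 (0.27), and stood at −0.08 in SKMES1, −0.16 in NCIH522 and −0.19 in PC9 in the authors' deposited table, with an r of −0.232 with the median of the mitotic genes. In NCIH1975 and EBC1, the lines with the lowest mitotic medians, CDKN1A was at 0.78 (SE 0.328) and 0.15 (SE 0.113) in the authors' deposited table and was not called. The SE in NCIH226, where the smaller change was called, was 0.085, so the lack of a call in NCIH1975 does not show that CDKN1A was unchanged there. Whether CDKN1A and the mitotic genes are related was not tested. The 3 brakes left out of that fit were each listed in 9 lines: CDKN2C, a CDK inhibitor, and SFN were below 0 in 9 of 9 with means of −0.52 ± 0.23 and −0.64 ± 0.38, and were called lower in 6 and 5 lines by the authors. ATM, a damage kinase, was below 0 in 5 of 9 with a mean of −0.21 ± 0.47. The kinases WEE1 and PKMYT1, which hold CDK1 inactive, had means of 0.002 ± 0.28 and −0.19 ± 0.41, and MASTL, which shields the substrates of CDK1 from dephosphorylation, of −0.20 ± 0.24 (n = 10; limma adjusted p = 0.992, 0.262 and 0.0981). GADD45A and CDKN1C, a damage-induced gene and a CDK inhibitor, had means of 0.41 ± 0.64 and 0.30 ± 0.50 that did not pass (n = 10; limma adjusted p = 0.113 and 0.138).

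The replication and G1/S genes had medians below 0 in most of the same lines. Of 39 genes 8 fell (20.5%) and 0 rose, 38 means were below 0 and the median of the means was −0.24, beside −0.24 for the mitotic genes. POLA2 and PRIM1, subunits of DNA polymerase alpha-primase, fell by 0.56 ± 0.24 and 0.54 ± 0.36, and the cyclin CCNE2 by 0.48 ± 0.39 (n = 10; limma adjusted p = 0.000433, 0.00299 and 0.00834). Line by line, the replication medians stood at −0.68 in EBC1, −0.15 in LK2, −0.37 in NCIH226, −0.12 in NCIH520, −0.20 in SKMES1 and −0.30 in SW900, and at −0.20 in NCIH1563, −0.52 in NCIH1975, 0 in NCIH522 and 0.24 in PC9. They were lower than the mitotic medians in EBC1 and NCIH1563 and higher in the other 8 lines. Whether the 2 lists differ was not tested.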

How the data were processed

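RNA sequencing of 10 cell lines, 40 libraries in all with 2 per arm, was summarised by the authors in 1 table of DESeq2 comparisons, and no per-library values were used here. Per the labels' protocols, the libraries were made with a stranded mRNA kit, and genes under an FPKM of 1 were filtered out, so a gene without a value in a line may be low there. Per the submitters' processing notes, the tools were FastQC, Salmon 0.12.0 and DESeq2, with GRCh38, and the DESeq2 version is not given in the sources used here. The deposited log2 fold changes, with their SE, are the authors' comparisons of GSK3368712 with DMSO within each line. The deposited adjusted p-values are those of DESeq2, computed by the authors per line. The deposited statistic is a score close to the fold change over its SE (largest gap 0.166). The mean normalised count is the authors' deposited signal over the libraries of a line, scaled for depth. The authors' deposited mark equals an adjusted p of at most 0.05 with a log2 change of at least 1 in either direction in 99.993% of entries.

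From these, limma 3.58.1 (R 4.3.3) tested the mean fold change over the 10 lines, and LUAD against LUSC, over 9339 genes with values in all 10 lines, with Benjamini-Hochberg adjustment over all of them at 0.05. Each line counts as 1 replicate whatever its SE. Cochran's Q used the authors' SEs. The fits were tested on simulated data. Promoter sequences and starts are RefSeq GRCh38.p14, gene coordinates are GENCODE 29 on GRCh38. All 48 genes could be named, and of other lists up to 3 genes per list by smallest p, 6 regulators and the 8 genes most correlated with the median of the 48. The 48 genes and the other lists were chosen with earlier results of these data known. Alternatives were the genes fitted, line scaling, the test, leaving out lines and a correction for GC content and length.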

Additional observations from a re-analysis of the deposited data

Results flagged for a closer look

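Over the 10 lines, a gene was looked at again where its highest or lowest line lay farther from the next than Dixon's 95% limit for 10 samples, which chance meets in about 1 of 20 groups. Among the 46 mitosis and G2/M genes with values in all lines 11 met it, and each of these values was from NCIH1563, NCIH1975 or PC9. The share of all genes that met it is not given here, so 11 cannot be read as particular to these genes. The limit takes the spread as equal in all lines. The median SE over the mitotic genes was 0.203, 0.364 and 0.292 in these 3 lines, against 0.07 to 0.0945 in the LUSC lines. In NCIH1563, CDK1 (0.69, next line −0.09), NDC80 (0.41, next −0.20), KIF18A (0.94, next 0.13) and ECT2 (0.48, next −0.08) were the highest values of their gene in the authors' deposited table, and KIF11 (−0.94, next −0.54) was the lowest. In NCIH1975, the lowest values were those of PLK1 (−1.11, next −0.38), BIRC5 (−1.35, next −0.48), HMMR (−1.69, next −0.94) and ESPL1 (−1.53, next −0.75) in the authors' deposited table. In PC9, INCENP (0.56, next −0.12) and BUB3 (0.16, next −0.13) were the highest in the authors' deposited table.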

How the results depend on the processing

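The number of mitosis and G2/M genes that fell across lines, 15 of 46, was 11 to 22 under each planned change of genes fitted, line scaling and variance model, and the number that rose was 0 in each setting run. The number over all 9339 genes moved too, from 1134 in the main fit to 1018 where 11 mitotic genes fell and 1414 where 22 did. In a random-effects meta-analysis with the authors' SEs 32 mitotic genes fell, beside 2053 of all 9339 genes. Alternatives chosen after seeing the data gave 31 in the 6 LUSC lines alone (1446 of all genes) and 0 in the 4 LUAD lines alone (where 3 of all 9339 genes were lower and 1 higher). They gave 30 without NCIH1563, NCIH1975 and PC9 together (1503 of all genes) and 19 with a correction for GC content and length (1339 of 9336), without NDC80 and NEK2. Leaving out 1 line at a time gave 10 to 21 genes, beside 880 to 1478 of all 9339 genes. AURKB and NDC80 were lost in 9 of the 10 such fits, and in an ordinary one-sample test AURKB, ESPL1, NDC80 and NEK2 were lost. SGO1 was not tested among the top 75% of genes by expression. With an adjusted p of at most 0.01 the entries per line were 166 lower and 6 higher in place of 212 and 14, and by the authors' mark 12 and 0. The shares of all entries at 0.01 are not given here. The genes that differed between LUAD and LUSC stayed at 0. Those that differed between lines numbered 33 to 42 (41 in the main fit, where 65.9% of all genes did). For single genes 842 results kept their side of the threshold, 48 lost it, 75 gained it and 0 reversed. The cause of these differences was not tested. The replicate block was not run. No paired analysis was possible because the table holds comparisons per line and no values per library. The SEs in the LUAD lines limit which changes could be called there.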
